A study of Mus musculus with 8 samples.

Results

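The 7 transcripts described here encode the channels, the cotransporter and the pump subunit by which airway and alveolar epithelium moves sodium, chloride and water: Scnn1a, Scnn1b, Scnn1g, Cftr, Ano1, Slc12a2 and Atp1b1. They were taken by gene symbol from 22756 genes, and all 7 were found and measured in each of 8 RNA-Seq libraries. The libraries came from CD45-depleted distal lung cells of adult mice, more than 90 percent C57BL/6 by the labels, that were lavaged before dissociation. Mice of both lines carry an IRES-tauGFP reporter in Chrna7, the gene of the nicotinic receptor alpha 7. The α7G line has otherwise unaltered alpha 7. The α7E260A:G line adds a point mutation that diminishes the calcium current of the receptor. The change is in the germ line, so it was present in every cell type of the lung. Each line was kept as control or exposed to side-stream cigarette smoke (CS) on 5 days per week for 4 months, which gives 4 groups of 2 libraries, 1 from male and 1 from female mice. How many mice went into a library is not given in the sources used here. The spread within a group is therefore the difference between 1 male and 1 female library, and p-values measure only the spread between these libraries.

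The liquid that lines airways and alveoli is set by the balance between sodium absorption and chloride secretion. In absorption, sodium enters the cell through the apical epithelial sodium channel (ENaC) and leaves at the basolateral side through the sodium pump, and water follows. In secretion, the basolateral cotransporter Slc12a2 loads the cell with chloride, which leaves through apical channels such as Cftr and Ano1. Fluid clearance by ENaC and the pump keeps the alveoli open for gas exchange, and loss of CFTR function causes cystic fibrosis.

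Total CDS counts, the reads counted on coding sequence, lay between 8020726 and 10944100 per library, and 3 counts corresponded to 0.27 to 0.37 reads per 1000000 counted (RPM). The lowest count of any of the 7 transcripts was 23, for Cftr in the female α7E260A:G control, equal to 2.10 RPM with a 95% Wilson interval of 1.40 to 3.15, and such intervals cover counting error only. Chrna7 had 0 counts in 7 libraries and 4 in the other, so the mutated gene could not be used to check the labels. The male and female α7E260A:G control libraries stood apart from each other, with the log2 count of a gene relative to the mean library changing by 0.38 and -0.28 per doubling of CDS length. Epithelial markers were abundant, and so were those of alveolar macrophages, despite the removal of lavage and CD45-positive cells. The markers of the pulmonary ionocyte, a rare CFTR-rich airway cell, were at or near the floor, with Foxi1 at 0 in every library and Ascl3 between 0 and 10 counts.

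Scnn1b and Scnn1g, the β and γ subunits of ENaC, are neighbours on chromosome 7 of the mm9 genome build (NCBIM37) used for the counts, at 129008591 to 129062029 and 128877993 to 128911989. Ano1 lies on the same chromosome at 151774454 to 151937879. These 3 genes are 58.8, 58.6 and 81.5 Mb from Chrna7 itself. Scnn1a and Cftr lie on chromosome 6 at 125271358 to 125294958 and 18120687 to 18272768. Atp1b1 lies on chromosome 1 at 166367398 to 166388486. Every count covers the exonic coding sequence of the annotated gene, not its introns or UTRs.

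The bases just before the transcription start are shown for the 3 transcripts whose libraries separated completely by genotype, as described below, and for Scnn1b, the neighbour of Scnn1g. They come from RefSeq on GRCm38.p6, a later build than that of the counts, and 5 of the 7 genes were matched in the promoter table used. Each is the strand of the gene, 250 bases long, with the last base next to the start, and capitals mark GGGCGG, the GC box bound by Sp1-family factors, on either strand.
Scnn1g, chr7:121734229-121734478, plus strand: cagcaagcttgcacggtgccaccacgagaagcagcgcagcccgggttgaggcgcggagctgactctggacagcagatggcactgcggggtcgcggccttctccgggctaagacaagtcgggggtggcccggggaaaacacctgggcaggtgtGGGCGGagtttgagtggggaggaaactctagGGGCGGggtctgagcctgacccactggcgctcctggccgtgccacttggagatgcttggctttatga
Scnn1b, chr7:121864788-121865037, plus strand: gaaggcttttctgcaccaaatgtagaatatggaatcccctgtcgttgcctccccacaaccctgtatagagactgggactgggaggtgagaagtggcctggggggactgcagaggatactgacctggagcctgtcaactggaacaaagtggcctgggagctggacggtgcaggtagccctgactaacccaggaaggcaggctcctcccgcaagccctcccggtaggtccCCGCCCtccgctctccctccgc
Ano1, chr7:144738574-144738823, minus strand: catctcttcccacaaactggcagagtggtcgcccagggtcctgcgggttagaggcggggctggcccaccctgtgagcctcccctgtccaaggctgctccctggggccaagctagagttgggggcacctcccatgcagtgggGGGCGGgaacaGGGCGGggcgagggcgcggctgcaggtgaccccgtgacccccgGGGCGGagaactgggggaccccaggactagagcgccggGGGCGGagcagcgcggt
Atp1b1, chr1:164458356-164458605, minus strand: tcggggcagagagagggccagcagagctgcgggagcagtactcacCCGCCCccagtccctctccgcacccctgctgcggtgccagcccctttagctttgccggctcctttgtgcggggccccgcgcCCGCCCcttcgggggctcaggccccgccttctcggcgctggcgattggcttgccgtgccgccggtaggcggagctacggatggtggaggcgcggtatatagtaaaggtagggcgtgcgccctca
The GC box occurred 2 times for Scnn1g, 1 time for Scnn1b, 4 times for Ano1 and 2 times for Atp1b1. It was present in 32.7% of the 32851 promoter windows of the same length. GC content was 65.2%, 60.8%, 72% and 70.4% in the same order, and 76.4% for Cftr, against a median of 52.4% over all windows. The steroid receptor element core TGTTCT and the cAMP response element TGACGTCA, both searched on either strand, were in none of the 5 windows, and in 16.1% and 1.55% of all. These matches describe letters only.

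To ask how abundant each transcript was, levels were compared per kb of CDS (RPM per kb). Atp1b1, the β1 subunit that carries the sodium pump to the membrane, was at 209.9 ± 75.6 (SD, n = 8 libraries). Scnn1a, the ENaC α subunit without which the channel does not reach the surface in useful amounts, was next at 58.0 ± 18.9. Scnn1b was at 23.7 ± 6.49, Slc12a2 at 15.4 ± 7.11, Scnn1g at 8.88 ± 3.39, Ano1 at 4.53 ± 1.41 and Cftr at 1.54 ± 0.999. This order of levels held between neighbours in 8 of 8 libraries, except that Scnn1b was above Slc12a2, and Slc12a2 above Scnn1g, in 7 of 8 each, so these 2 steps were not clear of the spread. The 3 ENaC subunits were thus unequal in level, with Scnn1a taking 56.0% to 71.3% of their summed RPM per kb, Scnn1b 21.7% to 33.8% and Scnn1g 6.02% to 12.6%. Of the chloride channels, Ano1 exceeded Cftr in level by 1.91 to 6.13 times. The dependence of counts on CDS length, which differed between libraries, was not removed from these levels. Its part in the order and the ratios was not tested.

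**Figure D1:**
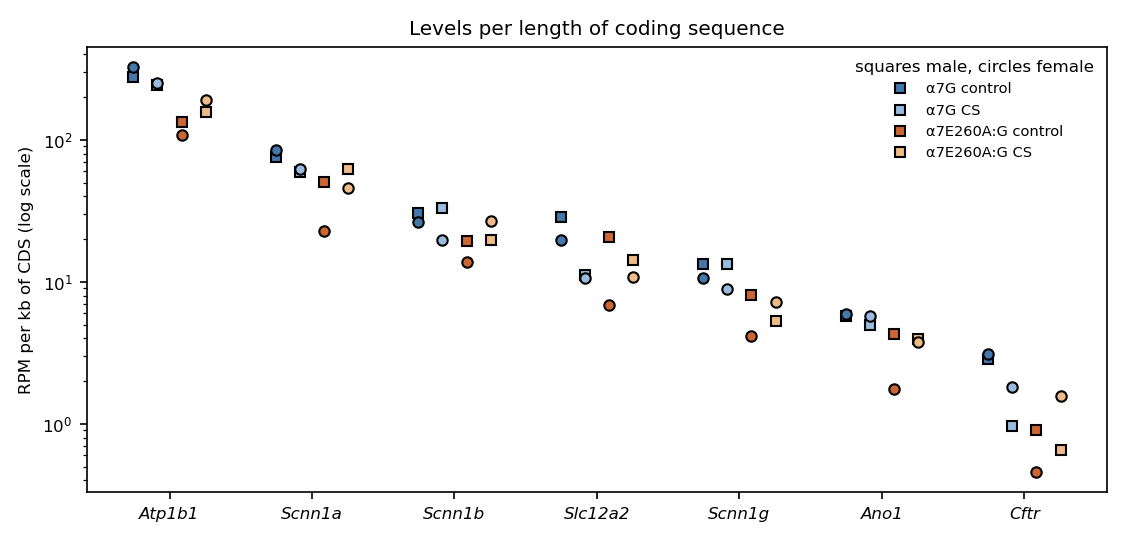
Level of each transcript in RPM per kb of CDS on a log axis, for the 8 libraries (squares male, circles female, colors by group). Atp1b1 lies between 107 and 324 and Cftr between 0.458 and 3.12, and the order of genes changes in a single library at each of the 2 steps around Slc12a2.

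The effect of the α7 genotype was examined first, with 4 α7E260A:G against 4 α7G libraries over both exposures. Each transcript was on average lower in α7E260A:G, but none passed an adjusted p of 0.05 in the quasi-likelihood test of edgeR, adjusted by the Benjamini-Hochberg method over 13637 genes, in which 13 genes, 0.0953%, were called. The unadjusted p was under 0.05, on the lower side, for 5 of the 7, against 5.49% of all genes tested. The RPM of 3 of the 7 were lower in every α7E260A:G library than in any α7G library, against 5.54% of all genes tested, and the RPM of none were higher throughout, against 2.34%. Without the male α7E260A:G control library 418 genes were called, Scnn1a among them (adjusted p 0.0427), and without the female 646 genes, Atp1b1 among them (adjusted p 0.0454), while leaving out any other library gave 1 to 7 called genes and none of the 7 transcripts. The same bulk values would result from fewer epithelial cells in the sample or from less RNA per cell, and these cannot be told apart. The groups of 4 hold 70 arrangements, so no exact two-sided p can be below 0.0286. Among the CS libraries alone the genotypes lay closer for some transcripts. Mean RPM in α7E260A:G differed from α7G by -11.5% for Scnn1a, -11.6% for Scnn1b, -20.3% for Cftr and 14.6% for Slc12a2, with overlapping libraries. For Scnn1g, Ano1 and Atp1b1 the differences were -43.6%, -27.9% and -30.0%, without overlap.

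Atp1b1 showed the clearest separation. In α7G its RPM were 252 (male) and 296 (female) in control and 222 and 228 after CS. In α7E260A:G they were 121 and 97.9 in control and 142 and 173 after CS. The groups did not overlap, and the highest α7E260A:G library was that of the CS-exposed female. The means were 133.5 ± 31.9 in α7E260A:G and 249 ± 33.4 in α7G (SD, n = 4 each), a ratio of 0.535, with an exact permutation p of 0.0286. The log2 fold-change was -0.83 (SE 0.18) with an adjusted p of 0.127 in edgeR. It was called by DESeq2 (adjusted p 0.00759), which called 1.49% of all genes lower and 2.3% higher. It was also called by edgeR when the dependence on CDS length was removed (adjusted p 0.0202). That fit called 485 of 13637 genes, 183 of them lower. In the 4 pairs matched for sex and exposure the ratio of α7E260A:G to α7G lay between 0.331 and 0.757.

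The 3 ENaC subunits differed in how far the genotypes separated. Scnn1g, the γ subunit cleaved by proteases during channel activation, had 26.1 and 21.0 RPM in the male and female α7G control and 26.1 and 17.6 after CS. In α7E260A:G it had 16.0 and 8.22 in control and 10.3 and 14.3 after CS, so the genotypes did not overlap. The means were 12.2 ± 3.54 against 22.7 ± 4.15, with a log2 fold-change of -0.82 (SE 0.26), an adjusted p of 0.267 in edgeR and an exact permutation p of 0.0286. Scnn1a had 158 and 178 RPM in the male and female α7G control and 125 and 131 after CS, against 107 and 48.2 in the α7E260A:G control and 131 and 96.0 after CS. The genotypes overlapped through a single library, the CS-exposed α7E260A:G male, which lay above 1 α7G library of the same exposure. The log2 fold-change of Scnn1a was -0.60 (SE 0.21) with an adjusted p of 0.311 in edgeR and an exact permutation p of 0.0571. It was called with the dependence on CDS length removed (adjusted p 0.0404), where 485 of 13637 genes were called, 183 of them lower. Scnn1b had the smallest separation of the 3 subunits, with 27.1 to 52.3 RPM in α7E260A:G and 38.8 to 64.4 in α7G, which overlapped. Its log2 fold-change was -0.39 (SE 0.23), with an adjusted p of 0.596 in edgeR and an exact permutation p of 0.143.

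The apical chloride channels were low in level and lower in α7E260A:G. Ano1, the calcium-activated chloride channel, had 18.2 and 18.8 RPM in the male and female α7G control and 15.7 and 18.2 after CS. In α7E260A:G it had 13.5 and 5.57 in control and 12.6 and 11.8 after CS. These did not overlap, and the female control was well below the other α7E260A:G libraries. The log2 fold-change was -0.66 (SE 0.25), with an adjusted p of 0.356 in edgeR and an exact permutation p of 0.0286. Cftr, the cAMP-activated chloride and bicarbonate channel, had 13.1 and 14.3 RPM in the α7G control and 4.42 and 8.35 after CS. In α7E260A:G it had 4.14 and 2.10 in control and 2.99 and 7.19 after CS. The α7G control libraries stood above all others, and those of the CS-exposed mice overlapped between genotypes. The log2 fold-change of Cftr, at -1.15 (SE 0.40), was the largest of the 7, with an adjusted p of 0.317 in edgeR and an exact permutation p of 0.0571.

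Slc12a2, the basolateral sodium, potassium and chloride cotransporter on chromosome 18 at 58038332 to 58106475 (mm9), had 103 and 71.6 RPM in the male and female α7G control and 40.7 and 38.5 after CS. In α7E260A:G it had 75.3 and 24.9 in control and 51.7 and 39.1 after CS. The genotypes overlapped widely, and 2 of the 4 pairs of the same sex and exposure were lower in α7E260A:G. The log2 fold-change was -0.26 (SE 0.28), with an adjusted p of 0.829 in edgeR and an exact permutation p of 0.486. Over the 8 libraries its log2 level followed the CDS length slope of the library with r = 0.84, against r between -0.02 and 0.46 for the other 6 transcripts. These correlations describe 8 libraries that share their length dependence across many genes, and the part of this slope in the result was not tested.

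**Figure D2:**
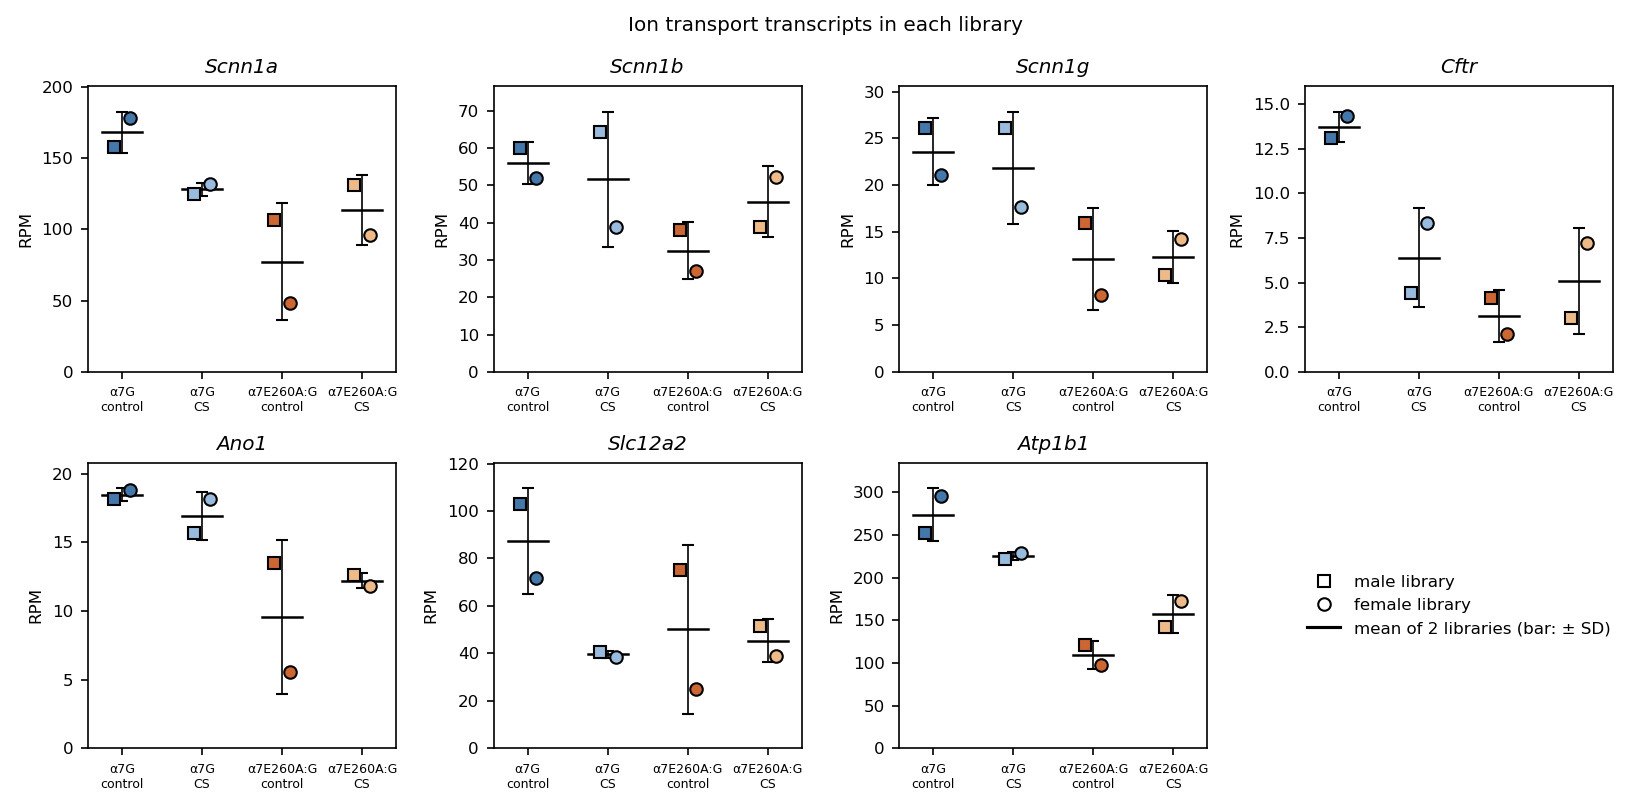
RPM of the 7 transcripts in each library (squares male, circles female), with the mean and SD of the 2 libraries of each group. Atp1b1, Scnn1g and Ano1 have all 4 α7E260A:G libraries below all 4 α7G libraries, while the other 4 transcripts overlap.

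The markers of the cell types in the samples also differed between the genotypes, and their values are given for comparison. The 8 type II alveolar (ATII) markers were all lower in α7E260A:G, with summed RPM of 4454 to 14350 against 19450 to 29910 in α7G. The 5 general epithelial markers, among them Epcam and Krt8, summed to 1002 to 1521 RPM against 1213 to 1886, with 4 of 5 lower. The 5 markers each of type I cells and of club cells were all lower, at 140 to 327 against 388 to 475 RPM and at 18710 to 51720 against 48710 to 78680. Of the 5 ciliated cell markers 4 were lower, at 832 to 1036 against 903 to 1527. The 9 alveolar macrophage markers were all higher, with 38300 to 67900 against 21330 to 32140 RPM. Of 52 tested markers of all types none was called by edgeR, and DESeq2 called 14, of which 7 were higher and 7 lower, beside 2.3% and 1.49% of all genes. Leukocyte markers, Ptprc among them, summed to 1736 to 2429 RPM against 2246 to 3044, endothelial markers to 182 to 515 against 420 to 488, fibroblast markers to 387 to 2156 against 739 to 857 and smooth muscle markers to 20.8 to 37.9 against 17.6 to 39.6. The 2 ionocyte markers summed to at most 0.374 RPM in α7E260A:G and 1.16 in α7G.

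Set against the 5 general epithelial markers, the genotype difference of the 7 transcripts was smaller in size. This scale was chosen after the data were seen, and subtracts from the log2 level of a transcript the mean log2 level of the 5 general epithelial markers of the same library. On it Atp1b1 differed by -0.28 (exact permutation p 0.171), Scnn1g by -0.26 (0.371), Ano1 by -0.11 (0.714), Cftr by -0.55 (0.343) and Scnn1a by -0.07 (0.800). Scnn1b and Slc12a2 had the other sign, at 0.17 and 0.24. All 7 transcripts overlapped between the genotypes on this scale. Against the 8 ATII markers all 7 were on the higher side in α7E260A:G, by 0.08 for Cftr to 0.87 for Slc12a2, and again all overlapped. There Scnn1b and Slc12a2 differed by 0.80 and 0.87, more in size than the -0.47 and -0.40 on log2(RPM + 0.5). The share of all genes that overlapped was not counted on either marker scale, so the overlap of the 7 has no reference.

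**Figure D3:**
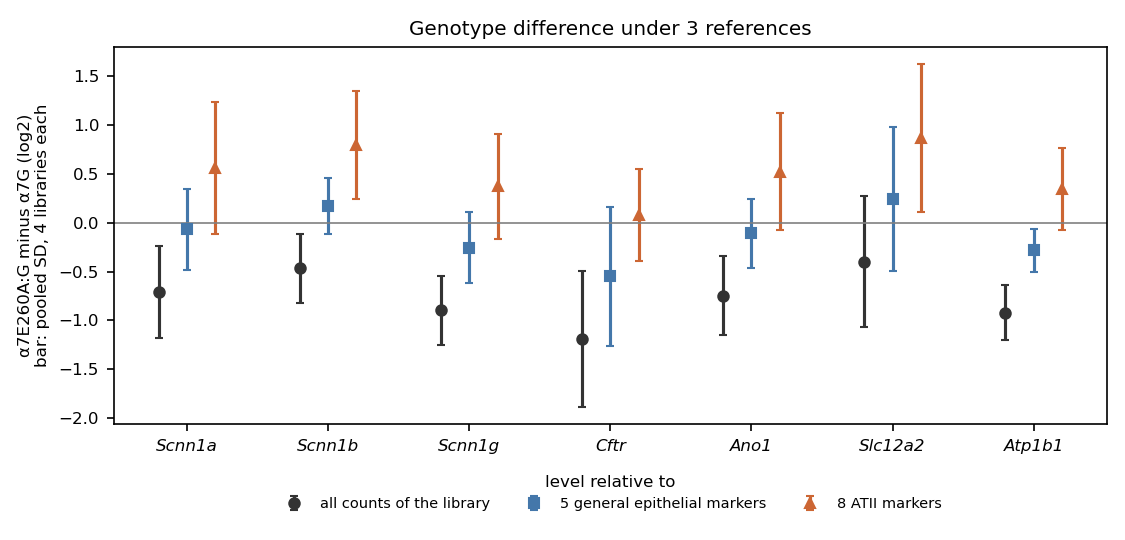
Difference in mean log2 level between α7E260A:G and α7G for each transcript when the level is taken relative to all counts of the library, to 5 general epithelial markers or to 8 ATII markers. Bars are the pooled SD of 4 libraries per genotype. Relative to all counts the 7 differences lie below 0, and relative to ATII markers they lie above 0.

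CS was examined next. Over both genotypes none of the 7 transcripts was called, nor was any gene (0%) in edgeR's test, in which 1041 genes had an unadjusted p under 0.05, 608 of them (4.46%) lower. DESeq2 called 68 genes and none of the 7. The unadjusted p was not under 0.05 for any of the 7. The largest log2 fold-change was that of Slc12a2, at -0.57 (SE 0.28, adjusted p 0.654). The other 6 lay between -0.11 for Cftr and 0.24 for Scnn1b. All 7 overlapped between CS and control libraries, while 0.931% of all genes were lower in every CS library.

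Within α7G, before any correction for CDS length, Slc12a2 and Cftr had larger fold-changes with CS than the other 5 transcripts. Slc12a2 was lower after CS in both sexes, at 0.396 and 0.537 times the control of the same sex, with a log2 fold-change of -0.996 (SE 0.40) and an adjusted p of 0.639 in edgeR. Cftr was at 0.337 and 0.584 times the control, with a log2 fold-change of -0.96 (SE 0.56) and the same adjusted p of 0.639. Slc12a2 alone of the 7 had an unadjusted p under 0.05, against 4.04% of all genes on the lower side, and no gene (0%) was called. In a fit of the 4 α7G libraries by themselves Slc12a2 was called (adjusted p 0.0328), as were 980 genes. Slc12a2 and Cftr have the longest CDS of the 7, at 3.62 and 4.59 kb. The log2 change per doubling of CDS length was 0.18 and 0.06 in the male and female α7G control. It was -0.21 and -0.18 after CS, and its part in the result was not tested. With the dependence on CDS length removed, the log2 fold-change of Slc12a2 was -0.53 (SE 0.22, adjusted p 0.661), and that of Cftr -0.40 (SE 0.61, adjusted p 0.874). The other 5 are given without that removal. Scnn1a and Atp1b1 had log2 fold-changes of -0.26 and -0.15, and Scnn1b, Scnn1g and Ano1 of 0.02, 0.03 and 0.01.

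Within α7E260A:G, 6 of the 7 log2 fold-changes with CS were positive and none was called, with adjusted p of 0.9997 throughout. One gene of all tested (0.00733%) was called. The values were 0.53 for Scnn1a (SE 0.30), 0.46 for Scnn1b (SE 0.32), 0.73 for Cftr (SE 0.58), 0.35 for Ano1 (SE 0.36), 0.48 for Atp1b1 (SE 0.26), 0.03 for Scnn1g (SE 0.37) and -0.14 for Slc12a2 (SE 0.39). The sexes went apart. In the female libraries CS was at 1.57 to 3.42 times control for all 7, the lowest being Slc12a2 and the highest Cftr. In the male libraries it lay between 0.648 for Scnn1g and 1.23 for Scnn1a, with 4 of the 7 below control. The female control, against which the female ratios are taken, held the lowest value of all 8 libraries for each of the 7 transcripts. The 5 general epithelial markers summed to 1002 RPM in the female control and 1521 in the CS-exposed female, and to 1018 and 1281 in the males, higher with CS in both sexes. Their part in the result was not tested.

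The difference between the genotypes in the CS response was tested as an interaction. No gene (0%) was called by edgeR, in which 297 genes had an unadjusted p under 0.05, and DESeq2 called 7 genes, none of them among the 7 transcripts. The difference in log2 fold-change was 1.70 for Cftr (SE 0.81), 0.86 for Slc12a2 (SE 0.56), 0.78 for Scnn1a (SE 0.42), 0.63 for Atp1b1 (SE 0.36), 0.44 for Scnn1b (SE 0.46), 0.34 for Ano1 (SE 0.50) and -0.001 for Scnn1g (SE 0.53), with an adjusted p of 1 for Scnn1g and 0.9996 for the other 6. Scnn1a was at 0.738 and 0.790 times control in the female and male α7G libraries and at 1.99 and 1.23 times control in those of α7E260A:G. Atp1b1 was likewise at 0.773 and 0.878 times control in α7G and at 1.77 and 1.17 in α7E260A:G. For both, the 2 ratios of a genotype lay on 1 side of 1. The female α7E260A:G control was the lowest library for each of the 7 transcripts, so all female ratios in that genotype lay above 1. The share of all genes with this pattern of ratios was not counted.

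**Figure D4:**
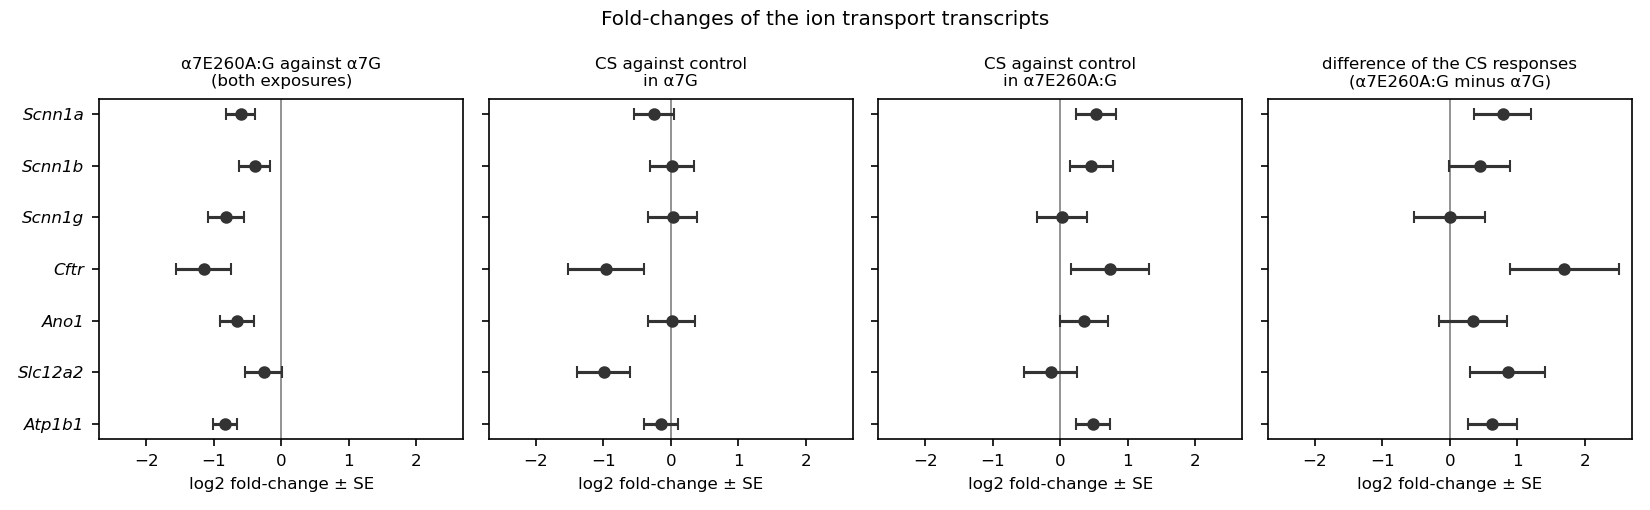
Log2 fold-changes with SE of the 7 transcripts for genotype over both exposures, for CS in each genotype and for the difference between the CS responses, from edgeR with 8 libraries. For genotype all 7 points are below 0, from -0.26 for Slc12a2 to -1.15 for Cftr, and no point passed the adjusted threshold in any panel.

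The 7 transcripts varied together over the libraries. All 21 pairs had a positive Pearson r of log2(RPM + 0.5) over the 8 libraries, from 0.47 for Slc12a2 with Atp1b1 to 0.96 for Scnn1a with Ano1, with a median of 0.75. The β and γ ENaC genes, which are neighbours, had r = 0.86. These are descriptions of 8 libraries that share depth, cell makeup and length dependence. They also include the genotype difference and the female α7E260A:G control, the lowest library for each of the 7 transcripts. No r of other gene pairs is given for comparison. With the mean log2 level of the general epithelial markers r was 0.90 for Atp1b1, between 0.64 and 0.80 for Scnn1a, Scnn1b, Scnn1g, Ano1 and Cftr, and 0.21 for Slc12a2. With the ATII markers r was 0.88 for Cftr and 0.84 for Atp1b1, the highest of the 7, and with the alveolar macrophage markers it was negative for all 7, from -0.52 for Slc12a2 to -0.85 for Scnn1g. The part of cell makeup in the genotype difference was not tested.

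Among 7378 genes whose mean count was 200 or more, the 3 most alike in pattern over 8 libraries were named for each transcript. They hold the highest of 7378 r values over 8 libraries, so their r are high by selection and are no test of shared regulation. Of the genes so named, only Abca3 is in the marker lists. For Scnn1a they were Rnf146, Susd2 and Faf1 (r = 0.98, 0.98 and 0.97), and for Ano1 Susd2, Itgb7 and Fbxo7 (r = 0.99, 0.97 and 0.97). Susd2, a membrane protein, was thus among the 3 for both. For Scnn1b they were Sc5d, Rrp1 and Aldh1a7 (r = 0.95, 0.94 and 0.93), and for Scnn1g Ssrp1, Taf5l and Adsl (r = 0.96, 0.95 and 0.94). For Cftr they were Dram1, Abcd3 and Cldn18 (r = 0.96, 0.95 and 0.95), the last a tight junction protein of alveolar epithelium. Atp1b1 was most like Il33, an epithelial alarmin cytokine, Epn3 and Gsr (r = 0.97, 0.96 and 0.95). Slc12a2 was most like Epc1, Ctcf and Abca3 (r = 0.97 each), of which Abca3 is the lipid transporter of ATII lamellar bodies and one of the ATII markers. With the 8 ATII markers together, however, Slc12a2 had r = 0.33, the lowest of the 7 transcripts. Abca3 has a long CDS of 5.11 kb, and the part of length in this likeness was not tested.

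The wider set of 69 genes of sodium, chloride, potassium and water transport was then examined, of which 57 reached a mean count of 10 and were tested. None was called in any of the 5 comparisons by edgeR. In the genotype comparison 22 of the 57 had an unadjusted p under 0.05, 16 lower and 6 higher in α7E260A:G, beside 5.49% lower and 5.97% higher of all genes, with a median log2 fold-change of -0.12 against 0.03 for all genes. DESeq2 called 11 of them, 8 lower and 3 higher, beside 1.49% and 2.3% of all genes. For CS over both genotypes 10 had an unadjusted p under 0.05, 6 lower and 4 higher, beside 4.46% and 3.18% of all genes, with a median of -0.05 against 0.01. DESeq2 called 2, beside 0.499%. The counts were 7 for CS in α7G, 6 for CS in α7E260A:G and 1 for the difference, beside 6.71%, 3.14% and 2.18% of all genes. DESeq2 called 1, Fxyd1, in α7G and none in the other 2, where it called 0.183%, 0.257% and 0.0513% of all genes. The RPM of 13 of the 57 (22.8%) were lower and of 4 (7.02%) higher in every α7E260A:G library than in any α7G library, beside 5.54% and 2.34% of all genes. With CS, 2 of the 57 (3.51%) were lower in every CS library than in any control library, beside 0.931% of all genes. One of the 57 (1.75%) was higher in every CS library, and the share of all genes that were so was not counted. Apart from the 2 genes most abundant per length in each role, the genes named below were chosen after their values were seen.

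ENaC regulators gave 7 of the 22, 6 of them lower. The 2 most abundant per length were Bpifa1, the secreted protein SPLUNC1 that binds ENaC and reduces its activity, and Tsc22d3, a glucocorticoid-induced transcript. Bpifa1 had 676 to 2909 RPM in α7E260A:G and 3191 to 5084 in α7G, with no overlap and a log2 fold-change of -1.31 (SE 0.34, adjusted p 0.188 in edgeR). Tsc22d3 averaged 194 ± 21.1 against 226.5 ± 25.03 RPM, with a log2 fold-change of -0.13 (SE 0.19). The channel-activating protease Prss8 had 19.2 to 30.9 against 41.2 to 52.6 RPM (log2 fold-change -0.87, SE 0.20, adjusted p 0.144), and the matriptase gene St14 23.7 to 43.3 against 48.4 to 69.4 RPM. Spint1 and Spint2, of the same role, were also lower on average, with log2 fold-changes of -0.39 (SE 0.18) and -0.67 (SE 0.28) and overlapping libraries. Sgk1, the kinase that keeps ENaC at the surface by inhibiting its ubiquitin ligase, went the other way, with 416 to 901 RPM in α7E260A:G and 315.5 to 383 in α7G. Its log2 fold-change was 0.94 (SE 0.20, adjusted p 0.124 in edgeR). The ligase itself, Nedd4l, had a log2 fold-change of -0.48 (SE 0.18) and overlapping libraries.

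Of the sodium pump genes, 1 of 7 tested, Fxyd3, had an unadjusted p under 0.05 for genotype, with a log2 fold-change of -1.30 (SE 0.36). Fxyd5, a pump regulator and the most abundant of them per length, averaged 989 ± 327 RPM in α7E260A:G and 842 ± 153 in α7G. Fxyd1, phospholemman, another pump regulator, had 4.59 to 14.1 RPM in the control and 17.4 to 37.1 in the CS libraries, with no overlap, and its log2 fold-change with CS was 1.55 (SE 0.25, adjusted p 0.546 in edgeR). In α7G CS was at 4.47 times control in the male and 7.47 times in the female, and in α7E260A:G at 1.24 and 1.67 times. The difference between the genotypes was -2.14 (SE 0.49, adjusted p 0.9996 in edgeR), and its unadjusted p was the single one under 0.05 in the set of 57.

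Chloride and bicarbonate transporters had 15 of 20 genes tested. Car2, carbonic anhydrase, had 15.5 to 28.2 RPM in α7E260A:G and 29.7 to 41.0 in α7G, with a log2 fold-change of -0.79 (SE 0.22), and Ano6, a lipid scramblase of the Ano1 family, had 82.2 to 211 against 59.5 to 120, with 0.62 (SE 0.25). Slc26a9, a chloride channel that works with CFTR, had 3.74 to 9.99 against 10.2 to 26.5 RPM, with -1.29 (SE 0.36), and Best1, another calcium-activated chloride channel, was higher, at 23.9 to 40.5 against 13.3 to 17.03, with 1.26 (SE 0.26). With CS, 2 genes of this role were lower in every CS library than in any control library. These are the 2 of the 57 (3.51%) counted above, beside 0.931% of all genes. Clca3, a secreted goblet cell protein named for a supposed chloride channel role, had 29.8 to 303 RPM in control and 4.31 to 15.1 in CS libraries, with a log2 fold-change of -4.22 (SE 0.86, adjusted p 0.612 in edgeR). It was at 0.0498 to 0.149 times control in 3 of the 4 pairs of the same sex and genotype and at 0.0229 times in the α7E260A:G males. Slc26a4, pendrin, an apical chloride and bicarbonate exchanger, had 2.80 to 5.34 RPM in control and 0.25 to 1.33 in CS libraries, the lowest of them below the floor of 3 counts, with a log2 fold-change of -1.96 (SE 0.57, adjusted p 0.636).

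The remaining roles gave smaller groups. Of 4 water channels Aqp5, of type I cells and airway glands, had 16.4 to 51.1 RPM in α7E260A:G and 55.1 to 98.7 in α7G, with a log2 fold-change of -1.38 (SE 0.34), and is also 1 of the 5 type I cell markers. Aqp1, mainly of endothelium, had -0.24 (SE 0.26). Of 6 potassium channel genes tested, 4 had an unadjusted p under 0.05 and were lower and 1 higher. Kcnn4, the calcium-activated potassium channel that drives chloride exit, had 14.3 to 26.1 against 27.6 to 34.8 RPM, with -0.65 (SE 0.20), and Kcne3, an accessory subunit, had 8.35 to 17.7 against 6.74 to 7.67, with 1.01 (SE 0.34). Of the 7 genes that control cotransport, Wnk1, the kinase upstream of Slc12a2, had 0.75 (SE 0.36) and Slc12a7, a potassium and chloride cotransporter, 0.52 (SE 0.21), and both overlapped. Of the partners and receptors of CFTR, the scaffold Slc9a3r1 had -0.12 (SE 0.19). P2ry2 and Adora2b, the nucleotide and adenosine receptors that stimulate secretion, were on opposite sides, with 14.2 to 19.1 against 8.57 to 12.6 RPM and 2.92 to 7.19 against 11.1 to 15.5. The same differences in ATII, other epithelial and macrophage markers accompany these values, and their part was not tested.

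**Figure D5:**
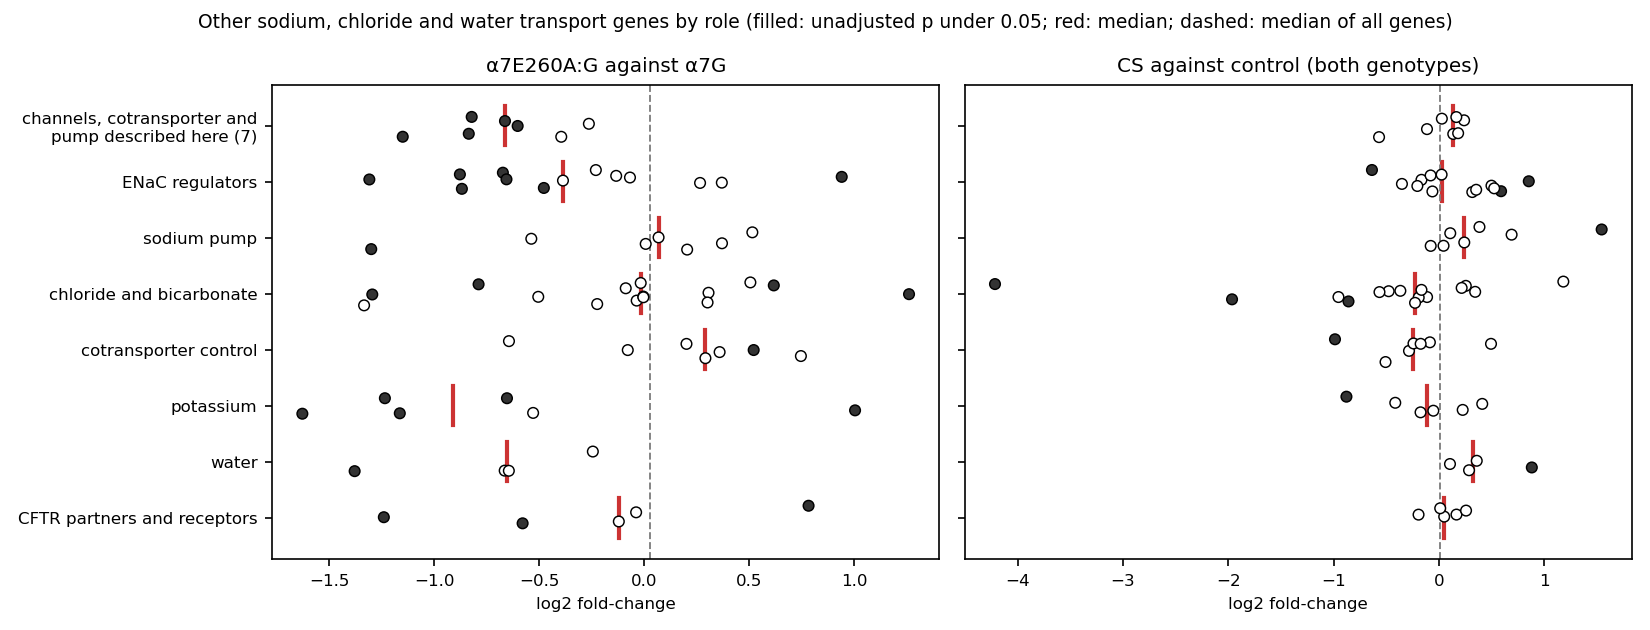
Log2 fold-changes of the 7 transcripts and of the 57 other tested transport genes by role, for genotype (left) and CS over both genotypes (right). Filled points have an unadjusted p under 0.05, red bars are medians and the dashed line is the median of all 13637 genes. The 7 transcripts have a median of -0.66 for genotype and 0.14 for CS.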

How the data were processed

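RNA-Seq was analysed from 8 libraries of 4 groups (α7G and α7E260A:G, control and CS), with 1 male and 1 female library each. The authors aligned reads of stranded mRNA libraries with STAR to mm9, extracted counts on coding sequence with htseq-count and GENCODE M1, and deposited them as raw counts without normalization, 22756 genes per library. All genes were matched by ID and symbol to GENCODE M1, which gave positions and CDS lengths.

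RPM were counts divided by library totals (8020726 to 10944100). Genes with a mean count of 10 or more (13637) were tested with edgeR 4.0.16 in R 4.3.3 (glmQLFit, glmQLFTest, TMM, Benjamini-Hochberg adjustment, threshold 0.05), in a model of the 4 groups without sex. SE were derived from the fold-change and the F statistic. All 7 transcripts passed this filter, while Scnn1g, Cftr and Ano1 are below the mean count of 200 used by the study. Log2 values had 0.5 RPM added. Exact two-sided permutation tests compared 4 with 4 libraries. Python 3.11.15, numpy 2.4.6, pandas 2.3.3, scipy 1.17.1 and matplotlib 3.10.9 were used. The fits were tested on simulated counts with a common dispersion for all genes and no dependence on CDS length. That test therefore did not cover the length dependence seen in these libraries.

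Alternatives were DESeq2 1.42.0, library size scaling, other filters, sex as a block, a lowess offset for CDS length (span 0.667), a fit of 1 genotype alone, and leaving out each library. The 7 transcripts, the transport and marker lists and the tests were chosen with earlier results of these data known. Named were the 7 transcripts, listed transport genes past the threshold (there were none), the 2 of each role most abundant per kb, the 3 genes most alike each transcript, the markers and Chrna7, with others marked as named after their values were seen. The values of 2 genes that this rule named are not reported here. The reads themselves were not used here.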

Additional observations from a re-analysis of the deposited data

Results flagged for a closer look

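The RPM of Slc12a2 in the male α7E260A:G CS library, 51.7, stood apart from the other 3 CS libraries, which lay between 38.5 and 40.7. The gap divided by the range was 0.8297, just above Dixon's critical value of 0.829 for 4 values, in 1 of 28 groups examined, and chance alone marks about 1 in 20.

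In ratios of RPM, the CS response of Scnn1a and of Atp1b1 went in opposite directions in the genotypes. It was lower than control in both sexes of α7G and higher in both sexes of α7E260A:G. The female α7E260A:G control was the lowest library for both transcripts, which puts the female ratio of that genotype above 1. The share of all genes with such opposite directions was not counted. Without 1 library the log2 fold-change of Atp1b1 in α7G lay between -0.29 and 0.012. The differences between the responses were 0.78 and 0.63 on the log2 scale, and the edgeR interaction test gave an adjusted p of 0.9996 for both.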

How the results depend on the processing

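The genotype comparison called 13 genes, and 516 with DESeq2, 6 with the abundance filter of the study, 69 with all genes of at least 1 count, 43 with sex as a replicate block, 485 with the CDS length offset, 714 with both, and 1 to 646 without 1 library. CS over both genotypes called 0 genes, and 68 with DESeq2, 1 with all genes of at least 1 count, 3 with the offset, 4 with block and offset, and 0 to 100 without 1 library. CS in α7G called 0 genes, and 25 with DESeq2 and 980 in a fit of its own 4 libraries. CS in α7E260A:G called 1 gene, 35 with DESeq2, 3 with all genes of at least 1 count, 2 with the offset and with block and offset, 0 with library size scaling, the abundance filter, the block or its own 4 libraries, and 0 to 142 without 1 library. The difference of the CS responses called 0 genes, 7 with DESeq2, 1 with the offset, and 0 to 97 without 1 library. The genotype calls were 10 higher and 3 lower in α7E260A:G, against 302 and 183 with the offset. Without the male α7E260A:G control library the counts were 418 for genotype, 100 for CS, 142 for CS in α7E260A:G and 97 for the difference, and without the female one 646, 12, 7 and 1. The causes were not tested, and a group left with 1 library is assumed to vary as the others. Libraries of the same sex deviated together in some pairs of groups only, with r from -0.02 to 0.59, so the numbers do not pair all samples, and the block called none of the 7 transcripts.

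For genotype all 7 transcripts kept their sign in all edgeR and DESeq2 alternatives run. Atp1b1 passed the threshold in 4 of 16 and Scnn1a in 3 of 16, with adjusted p between 0.00759 and 0.549 and between 0.0372 and 0.784, and the other 5 in none. Of the 14 sets of member and comparison, 3 had libraries that did not overlap in RPM, and 3 to 5 without 1 library. Scnn1a overlapped between genotypes in RPM, but not with TMM-scaled library sizes or with the dependence on CDS length removed (exact permutation p 0.0286 each). The number of sets was 0 relative to the 5 general epithelial markers and 0 relative to the 8 ATII markers, both chosen after seeing the data. The share of all genes without overlap was not counted on these scales. Relative to the former the sign turned for Scnn1b (0.17) and Slc12a2 (0.24), and relative to the latter for Scnn1a (0.56), Scnn1b (0.80), Scnn1g (0.37), Cftr (0.076), Ano1 (0.52), Slc12a2 (0.87) and Atp1b1 (0.34).

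For CS the sign of small log2 fold-changes, none of them called, turned as follows. With library size scaling Scnn1g was at -0.039 over both genotypes, Scnn1b, Scnn1g and Ano1 were at -0.12, -0.11 and -0.13 in α7G, and Scnn1g was at 0.14 for the difference of the responses, where this scaling shifts the median gene by 0.21. With the offset Cftr was at 0.35 and Atp1b1 at -0.0026 over both genotypes, and Slc12a2 at 0.11 in α7E260A:G. With block and offset these were 0.20, -0.0049 and 0.12. Ano1 in α7G was at -0.00025 with DESeq2 and at -0.0067 in the fit of its own libraries. Scnn1g for the difference was at 0.0038 with filterByExpr, 0.0085 with all genes of at least 1 count and 0.043 with the block. Without 1 library the range over both genotypes was -0.035 to 0.36 for Scnn1a, -0.18 to 0.20 for Scnn1g, -0.60 to 0.17 for Cftr and -0.012 to 0.45 for Ano1. In α7G it was -0.40 to 0.31 for Scnn1b, -0.29 to 0.26 for Scnn1g, -0.12 to 0.10 for Ano1 and -0.29 to 0.012 for Atp1b1. In α7E260A:G it was -0.38 to 0.36 for Scnn1g, -0.21 to 1.30 for Cftr, -0.017 to 0.89 for Ano1 and -0.61 to 0.62 for Slc12a2. For the difference it was -0.39 to 0.33 for Scnn1g and -0.011 to 0.88 for Ano1.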
